A study of Mus musculus with 24 samples.

Results

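Ribosomal proteins and the translation factors that load, move and regulate ribosomes were compared between the newborn lens and the embryonic forebrain of the mouse. The genes were chosen by symbol alone: Rpl and Rps genes with their a, x, l and y forms, Rplp0 to Rplp2, Rpsa, and all symbols that begin with Eif or Eef followed by a number. This gave 147 of the 23947 genes measured, of which 84 encode ribosomal proteins (51 of the large and 33 of the small subunit) and 63 encode translation factors. RNA was measured in 3 libraries of CD-1 mice, an outbred stock: lens fiber at postnatal day 1 (P1), lens epithelium at P1, and embryonic forebrain at E12.5. The labels give no transgene, mutation or treatment for any of them and do not say whether animals were pooled, and total RNA was made into strand-specific libraries. The study profiled the transcription factor Pax6 and chromatin marks in the same tissues, and those data were not used here. Each tissue was represented by 1 library, so no difference below was checked against replicates and no test was made. Lens and forebrain also differ in age, so in any comparison of the pair the effects of tissue and of age cannot be told apart.

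Cytosolic ribosomes are built from ribosomal RNA and a fixed set of ribosomal proteins, which enter each particle mostly as single copies. Initiation factors bring the initiator tRNA, the mRNA cap and the small subunit together and then join the large subunit, and elongation factors deliver aminoacyl-tRNA and move the ribosome along the mRNA. Most mRNAs of vertebrate ribosomal proteins and several of elongation factors begin with a C and a run of pyrimidines, the 5' terminal oligopyrimidine (TOP) tract, through which the TOR kinase sets their translation. Lens epithelium covers the anterior face of the lens, and its cells divide and add to the fiber mass. Lens fibers stop dividing, elongate, make crystallins in very large amounts and finally lose their organelles, ribosomes included.

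The TOP tract lies at the transcription start, so start windows are shown for the ribosomal proteins with the 3 highest and the 3 lowest ratios of lens fiber over lens epithelium and over forebrain, with those of Rpl41, the most abundant member in lens fiber, and Eif5b, the factor with the highest ratios. Each window holds 15 bases before and 15 bases from the RefSeq start (GRCm38.p6), 5' to 3' on the transcribed strand, so the 16th base is the first one transcribed, and CTTTC is in capitals. The windows lie at chr11:114668565-114668594 (+) for Rpl38, chr2:39005117-39005146 (-) for Rpl35, chr11:68901551-68901580 (+) for Rpl26, chr14:18270972-18271001 (-) for Rpl15 and chr3:90213634-90213663 (-) for Rps27. They lie at chr17:46782642-46782671 (-) for Rpl7l1, chr10:128549154-128549183 (-) for Rpl41 and chr1:37997995-37998024 (+) for Eif5b. Rpl35a has 3 listed starts, of which the first 2 are shown, at chr16:33056438-33056467 (+) and chr16:33056467-33056496 (+).
Rpl38: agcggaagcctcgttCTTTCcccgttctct
Rpl35: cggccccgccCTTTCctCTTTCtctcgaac
Rpl26: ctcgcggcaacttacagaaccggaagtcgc
Rpl35a, first start: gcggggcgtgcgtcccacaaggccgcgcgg
Rpl35a, second start: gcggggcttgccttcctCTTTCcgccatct
Rpl15: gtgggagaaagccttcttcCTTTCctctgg
Rps27: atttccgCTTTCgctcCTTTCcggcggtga
Rpl7l1: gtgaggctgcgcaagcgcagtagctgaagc
Rpl41: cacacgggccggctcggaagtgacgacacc
Eif5b: ggcgcctgggttcccacctggccggcggct
Of the members with the highest ratios, Rpl38, Rpl35 and, at its second listed start, Rpl35a held CTTTC in these windows and Rpl26 did not. Of those with the lowest ratios, Rpl15 and Rps27 held it and Rpl7l1 did not. The starts are annotated and were not mapped in these libraries, so a window without CTTTC does not show that a TOP tract is absent.

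RefSeq promoters were found for 112 of the 147 members, 63 ribosomal proteins and 49 factors. In the 40 bases around the start, CTTTC on the transcribed strand occurred in 19 of 75 promoters of ribosomal proteins (25.3%), in 5 of 64 promoters of factors (7.81%), in 4.0% of promoters of mitochondrial ribosomal proteins and in 5.49% of all 32851 promoters. On the other strand it occurred in 5.33% of promoters of ribosomal proteins and 4.86% of all promoters. The longer CTCTTTC, which contains CTTTC, was found on the transcribed strand in 9.33% of promoters of ribosomal proteins and 0.56% of all promoters. CCGGAA, a core that ETS family factors bind, was searched on both strands of the whole 300 bases. It occurred in 48.0% of promoters of ribosomal proteins, 42.2% of promoters of factors and 14.9% of all promoters. Promoters of mitochondrial ribosomal proteins held it in 57.3%, more often than either class of members. The ribosomal proteins with CTTTC in a window had a median log2 ratio of 0.48 between lens fiber and lens epithelium (18 genes), and those without it had 0.40 (42 genes).

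All values are RPKM, read counts set per kilobase of transcript and per sequencing depth, as the authors deposited them. Ratios are log2((RPKM + 1) / (RPKM + 1)), taken for genes that reached 1 RPKM in 1 library of the pair or in both, and members at least 2-fold apart (1 on the log2 scale) were counted. The RPKM values summed to 2603160 in lens fiber, 587475 in lens epithelium and 598020 in forebrain, and crystallins made up 69.2%, 3.70% and 0.018% of these sums. Scaling the libraries to equal sums over all genes moves the log2 ratio of plain RPKM by -2.15 for lens fiber over lens epithelium and by -2.12 for lens fiber over forebrain. The same scaling without crystallins moves it by -0.50 and -0.43, so a direction in lens fiber depends on the scale. With 1 RPKM added, low values move by less than these amounts, and the values given below as scaled include the added 1 RPKM. Without crystallins the sums were 802835, 565764 and 597913 RPKM in lens fiber, lens epithelium and forebrain. Protein-coding genes held 306389, 217535 and 261954 RPKM of these sums in the same order. The remainder includes short RNAs such as Snord15b, so the scaled values depend on these as well. The median of all genes, as deposited, was itself -0.42 between lens fiber and lens epithelium and -0.41 between lens fiber and forebrain. The summed lens fiber markers (14 genes) were 1434770 RPKM in lens fiber, 16139 in lens epithelium and 83.9 in forebrain. Summed lens epithelium markers (7 genes) were 621, 1044 and 48.5 RPKM in the same order, and summed forebrain markers (11 genes) 7.07, 33.9 and 999 RPKM. Of the lens epithelium markers, Col4a2 had 470 RPKM in lens fiber and 532 in lens epithelium, and Pitx3 had 37.3 and 35.0. The rest were all lower in lens fiber by a wider gap, such as Foxe3 with 0.433 and 19.4 RPKM and Cdh1 with 0.940 and 62.3. Blood cell genes (7 genes) summed to 6.26, 345.5 and 5655 RPKM and proliferation genes (5 genes) to 2.66, 90.9 and 315 RPKM, and their part in the results below was not tested. Summed RPKM was 1.41, 28.6 and 0.361 for retina and photoreceptors, 9.73, 56.4 and 5.30 for pigment cells, and 1.75, 45.5 and 20.04 for endothelium. It was 0.80, 7.22 and 7.28 for myeloid cells, 0.688, 9.77 and 82.7 for mesenchyme, and 0.094, 0.357 and 0.243 for cornea and surface epithelium.

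**Figure D1:**
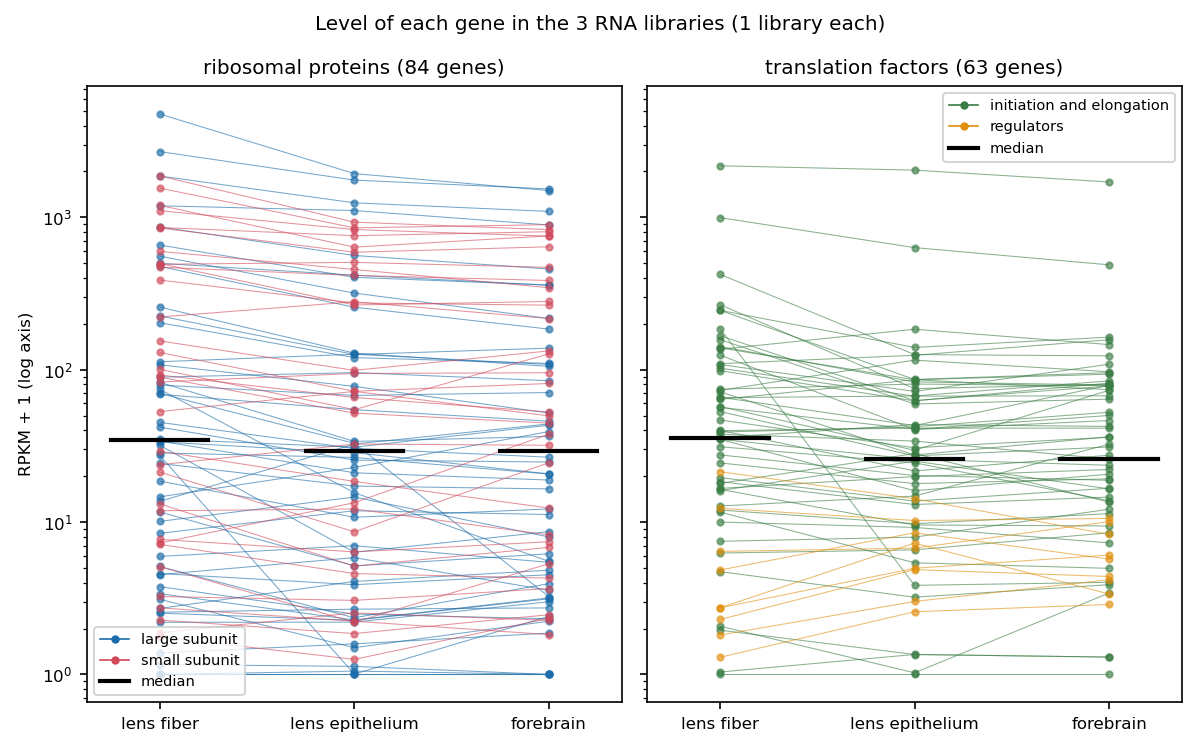
Level of each of the 84 ribosomal proteins (left) and 63 translation factors (right) in the 3 RNA libraries, as RPKM + 1 on a log axis; a line joins the values of 1 gene and a black bar marks the median of the class. The median level of ribosomal proteins was 33.5 RPKM in lens fiber, 28.5 in lens epithelium and 28.3 in forebrain, and the lines of Rpl26, Rpl35a and Eif5b are the steepest.

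The levels of ribosomal proteins spanned more than 3 orders of magnitude within each library. Medians were 33.5 RPKM in lens fiber, 28.5 in lens epithelium and 28.3 in forebrain, with 7, 9 and 6 of the 84 genes below 1 RPKM. Rpl41, which encodes a very short peptide, had 4761 RPKM in lens fiber, 1934 in lens epithelium and 1497 in forebrain. Rplp1, an acidic protein of the ribosomal stalk, had 2698, 1753 and 1535 RPKM in the same order. These were the 2 most abundant ribosomal proteins in each library, and Rps21 and Rpl8 followed. Rps21 had 1868 RPKM in lens fiber, 928 in lens epithelium and 829 in forebrain, and Rpl8 had 1864, 1243 and 1092 RPKM. At the other end, Rpl29 and Rpl10l were listed at 0 in all 3 libraries, and Rps18 had 0.873, 1.53 and 1.26 RPKM in lens fiber, lens epithelium and forebrain. The ranking of the genes was shared between libraries, with Pearson correlations of log2(RPKM + 1) over the 84 genes of 0.96 to 0.98, as a description of levels that share gene length and mappability.

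The level of a single ribosomal protein is uncertain where the gene has copies in the genome. Ribosomal protein genes have many processed pseudogenes, and reads that match both cannot be placed, and the sources used here do not say how the authors treated them. The RefSeq table named 319 pseudogenes after 64 of the 84 genes. The 21 genes whose highest value stayed under 5 RPKM had a median of 3 named pseudogenes, the 24 genes with a highest value of 5 to 50 RPKM had a median of 4, and the 39 genes at 50 RPKM or more had a median of 1. Some copies carried more signal than their parent gene: Rpl14-ps1 was listed at 1054, 701 and 571 RPKM in lens fiber, lens epithelium and forebrain, against 202, 119 and 109 RPKM for Rpl14. Rplp2-ps1 was listed at 340, 258 and 209 RPKM, against 257, 127 and 104 RPKM for Rplp2. In bulk RNA, moreover, fewer cells of a type and less RNA per cell cannot be told apart.

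Between lens fiber and lens epithelium, ribosomal proteins lay above the bulk of genes as deposited. Of the 78 that reached 1 RPKM in this pair, 59 had a higher value in lens fiber, 14 (17.9%, Rpl26 among them) were higher by 2-fold or more and 1 (1.28%) lower. Over all 12090 genes compared, 4228 had a higher value in lens fiber, and 11.4% were higher and 28.3% lower by 2-fold or more. The median log2 ratio was 0.50 for ribosomal proteins as deposited and became -1.44 with libraries scaled to equal sums over all genes and 0.019 with crystallins left out of the sums. Among genes with at least 50 RPKM in forebrain, the library outside this pair, the median was 0.58 for 33 ribosomal proteins and -0.06 for all 788 genes. Of these 33, 3 were higher by 2-fold or more and none lower, against 19.2% and 28.2% of the 788 genes. Of the 26 ribosomal proteins under 10 RPKM in forebrain, 9 were higher by 2-fold or more, a share not taken over all genes. Most of the 14 thus had low forebrain values, and with 5 RPKM added 7 ribosomal proteins were higher by 2-fold or more. The quartiles of the 78 ratios were 0.089 and 0.84, against -1.08 and 0.31 over all genes, so the ribosomal proteins lay closer together than genes at large.

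**Figure D2:**
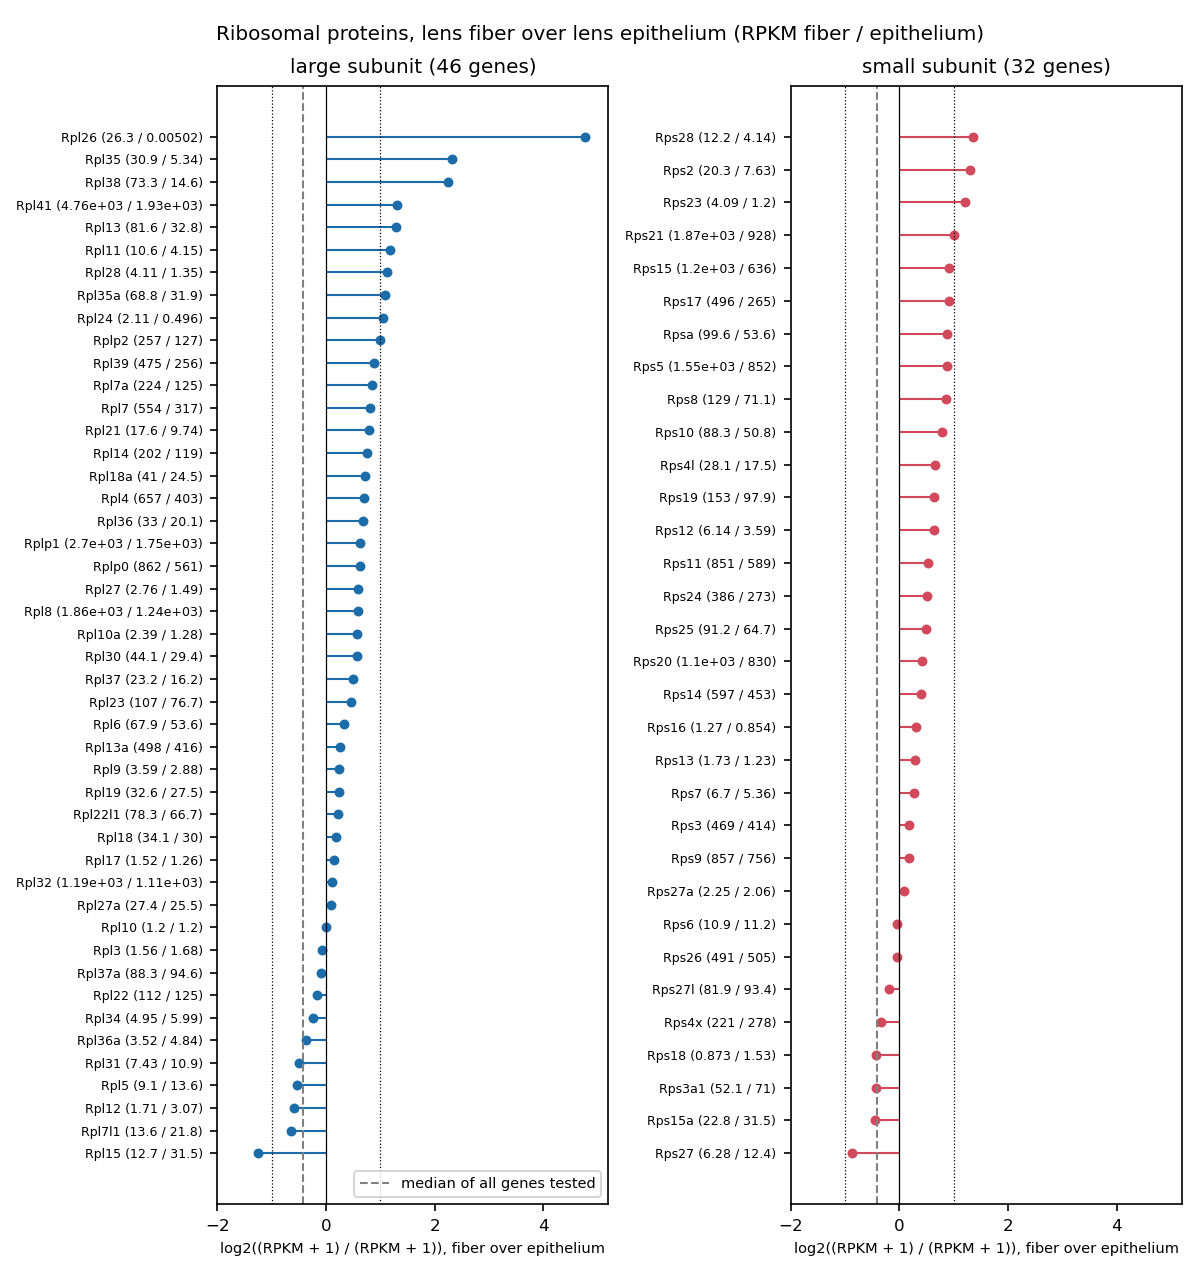
Log2 ratio of lens fiber over lens epithelium as deposited for each ribosomal protein that reached 1 RPKM in this pair, large subunit left and small subunit right, with RPKM in lens fiber and in lens epithelium beside each symbol. Dotted lines mark 2-fold and the dashed line the median of all genes (-0.42); the class median of 0.50 becomes -1.44 with libraries scaled to equal sums over all genes.

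Rpl26, which sits near the exit of the tunnel through which the new chain leaves, had 26.3 RPKM in lens fiber, 0.005 in lens epithelium and 1.40 in forebrain. Whether the value near 0 in lens epithelium is a failed estimate was not tested. The ratios of Rpl26 against lens epithelium are plotted and counted with the added 1 RPKM and are not read as sizes of a difference. Rpl35, another protein at the tunnel exit, had 30.9 RPKM in lens fiber, 5.34 in lens epithelium and 7.65 in forebrain. Rpl38, which in the mouse is needed for translation of a subset of Hox mRNAs, had 73.3, 14.6 and 4.52 RPKM in that order. The log2 ratio of lens fiber over lens epithelium was 2.33 for Rpl35 and 2.25 for Rpl38, which became 0.35 and 0.17 with libraries scaled to equal sums over all genes. Next came Rps28 (12.2 RPKM in lens fiber and 4.14 in lens epithelium, log2 ratio 1.36) and Rps2 (20.3 and 7.63 RPKM, log2 ratio 1.30), both proteins of the small subunit at the path of the mRNA. Rpl35, Rpl38 and Rps28 have at most 2 named pseudogenes each, while Rpl26 has 7 and Rps2 has 12.

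At the low end, Rpl15 had 12.7 RPKM in lens fiber, 31.5 in lens epithelium and 43.0 in forebrain. It was the only ribosomal protein at least 2-fold lower in lens fiber than in lens epithelium (log2 ratio -1.25). Rps27, a zinc finger protein of the small subunit, had 6.28 RPKM in lens fiber, 12.4 in lens epithelium and 36.8 in forebrain, with a log2 ratio of -0.88 between lens fiber and lens epithelium. Rpl7l1, a paralog of Rpl7, had 13.6, 21.8 and 38.2 RPKM, and Rpl12, at the base of the stalk, had 1.71, 3.07 and 3.83 RPKM. In all of these the order was the same, with lens fiber lowest and forebrain highest. Rpl5, which carries the 5S RNA into the ribosome together with Rpl11, had 9.10 RPKM in lens fiber, 13.6 in lens epithelium and 6.98 in forebrain, whereas Rpl11 had 10.6, 4.15 and 5.19 RPKM.

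Between lens fiber and forebrain, 61 of 79 ribosomal proteins had a higher value in lens fiber as deposited, 13 (16.5%) were higher by 2-fold or more and 3 (3.80%) lower. Over the 12205 genes compared, 4597 had a higher value in lens fiber. By 2-fold or more, 15.9% were higher and 31.6% lower, so the share of members higher by 2-fold was near that of all genes. The median log2 ratio of 0.53 became -1.34 with libraries scaled to equal sums over all genes, and 0.13 without crystallins in the sums. Among genes with at least 50 RPKM in lens epithelium, the library outside this pair, the median was 0.67 for 36 ribosomal proteins and 0.50 for all 780 genes, of which 37.1% were higher and 19.4% lower by 2-fold or more. Of the 36 ribosomal proteins, 7 were higher by 2-fold or more and none lower. Against genes of like abundance, ribosomal proteins as a class thus stood close to the median.

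Rpl35a, whose human gene is mutated in some cases of Diamond-Blackfan anemia, was furthest apart from forebrain, with 68.8 RPKM in lens fiber, 31.9 in lens epithelium and 2.24 in forebrain. Its log2 ratio was 4.43 for lens fiber over forebrain and 3.34 for lens epithelium over forebrain. Rpl38 and Rpl26 followed in lens fiber over forebrain, with log2 ratios of 3.75 and 3.51, then Rpl35 with 1.88 and Rpl41 with 1.67. The lowest were Rps27 with -2.37, Rpl15 with -1.69, Rpl7l1 with -1.42, Rpl12 with -0.83 and Rpl10, a late-joining protein of the large subunit, with -0.45 (1.20 RPKM in lens fiber and 1.997 in forebrain). Rpl35a has 6 named pseudogenes and Rpl26 has 7. Their forebrain values were low, 2.24 and 1.40 RPKM, so the sizes of their ratios over forebrain are uncertain.

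Lens epithelium and forebrain were closest to each other. Of 79 ribosomal proteins, 2 (2.53%) were higher by 2-fold or more in lens epithelium and 5 (6.33%) lower, against 13.7% and 11.9% of all 12619 genes compared. Their median log2 ratio was 0.08, and among genes with at least 50 RPKM in lens fiber, the library outside this pair, it was 0.18 for 39 ribosomal proteins and 0.15 for all 986 genes, of which 21.3% were higher and 4.26% lower by 2-fold or more. Of the 39, 2 were higher by 2-fold or more and 1 lower. The 2 higher members were Rpl35a and Rpl38 (log2 ratio 1.497). Rpl5 (0.87), Rpl36a (4.84 RPKM in lens epithelium and 2.57 in forebrain, log2 ratio 0.71) and Rps4l (17.5 and 11.4 RPKM, 0.58) came next. The 5 lower members were Rps2 (7.63 RPKM in lens epithelium and 23.5 in forebrain, log2 ratio -1.50), Rps27 (-1.49), Rps23 (1.20 and 4.32 RPKM, -1.27), Rpsa (53.6 and 126.0 RPKM, -1.22) and Rpl26, with its value near 0 in lens epithelium. Rpsa, also known as the laminin receptor, has 12 named pseudogenes, as has Rps2.

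Most ribosomal proteins were highest in lens fiber as deposited: 52 of the 79 with at least 1 RPKM in any library, against 12 highest in lens epithelium and 15 in forebrain. For 32 of them the order was lens fiber, lens epithelium, forebrain from high to low, and for 7 it was the reverse. These counts and orders were not made over all genes or with scaled libraries, so they hold for the deposited scale only. Without crystallins in the sums, the median of ribosomal proteins for lens fiber over lens epithelium was 0.019. By 2-fold or more, 3 were then higher and 3 lower. The large subunit had median log2 ratios of 0.57 for lens fiber over lens epithelium and 0.60 for lens fiber over forebrain, which became -1.44 and -1.29 with equal sums over all genes, and 0.079 and 0.21 without crystallins in the sums. The small subunit had 0.45 and 0.29, which became -1.45 and -1.53, and -0.01 and -0.13 without crystallins in the sums. In the ribosomal stalk, which recruits the elongation factors, Rplp0 had 862 RPKM in lens fiber, 561 in lens epithelium and 457 in forebrain, and Rplp1 and Rplp2 were ordered the same way.

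Paralogs were compared with their parent genes within each library. Rps27l, a paralog of Rps27 that is induced by p53, had 81.9 RPKM in lens fiber, 93.4 in lens epithelium and 94.4 in forebrain, so the ratio of Rps27l to Rps27 was 13.0, 7.54 and 2.57. The ratio of Rpl7l1 to Rpl7 was 0.0246 in lens fiber, 0.0688 in lens epithelium and 0.177 in forebrain, with Rpl7 at 554, 317 and 216 RPKM. Both ratios moved in the same order of libraries, Rps27l to Rps27 upward and Rpl7l1 to Rpl7 downward toward lens fiber. The ratio of Rps4l to Rps4x was 0.128, 0.0629 and 0.0527, and that of Rpl22l1 to Rpl22 was 0.701, 0.533 and 0.651. Rpl3l, which in the mouse is made in heart and skeletal muscle, and Rpl39l, made in testis, stayed under 1 RPKM in every library. Within a library these ratios do not depend on its scaling, although pseudogenes can still take reads from either gene.

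The share of ribosomal proteins in all summed RPKM was 1.01% in lens fiber, 2.81% in lens epithelium and 2.51% in forebrain. Over protein-coding genes without crystallins, a choice made after seeing the data, the order was different, with 8.55%, 7.59% and 5.72%. Translation factors made up 0.268%, 0.842% and 0.782% of all summed RPKM, and 2.27%, 2.27% and 1.79% over protein-coding genes without crystallins. The low shares in lens fiber over all genes stand beside the crystallin share of 69.2% in that library.

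**Figure D3:**
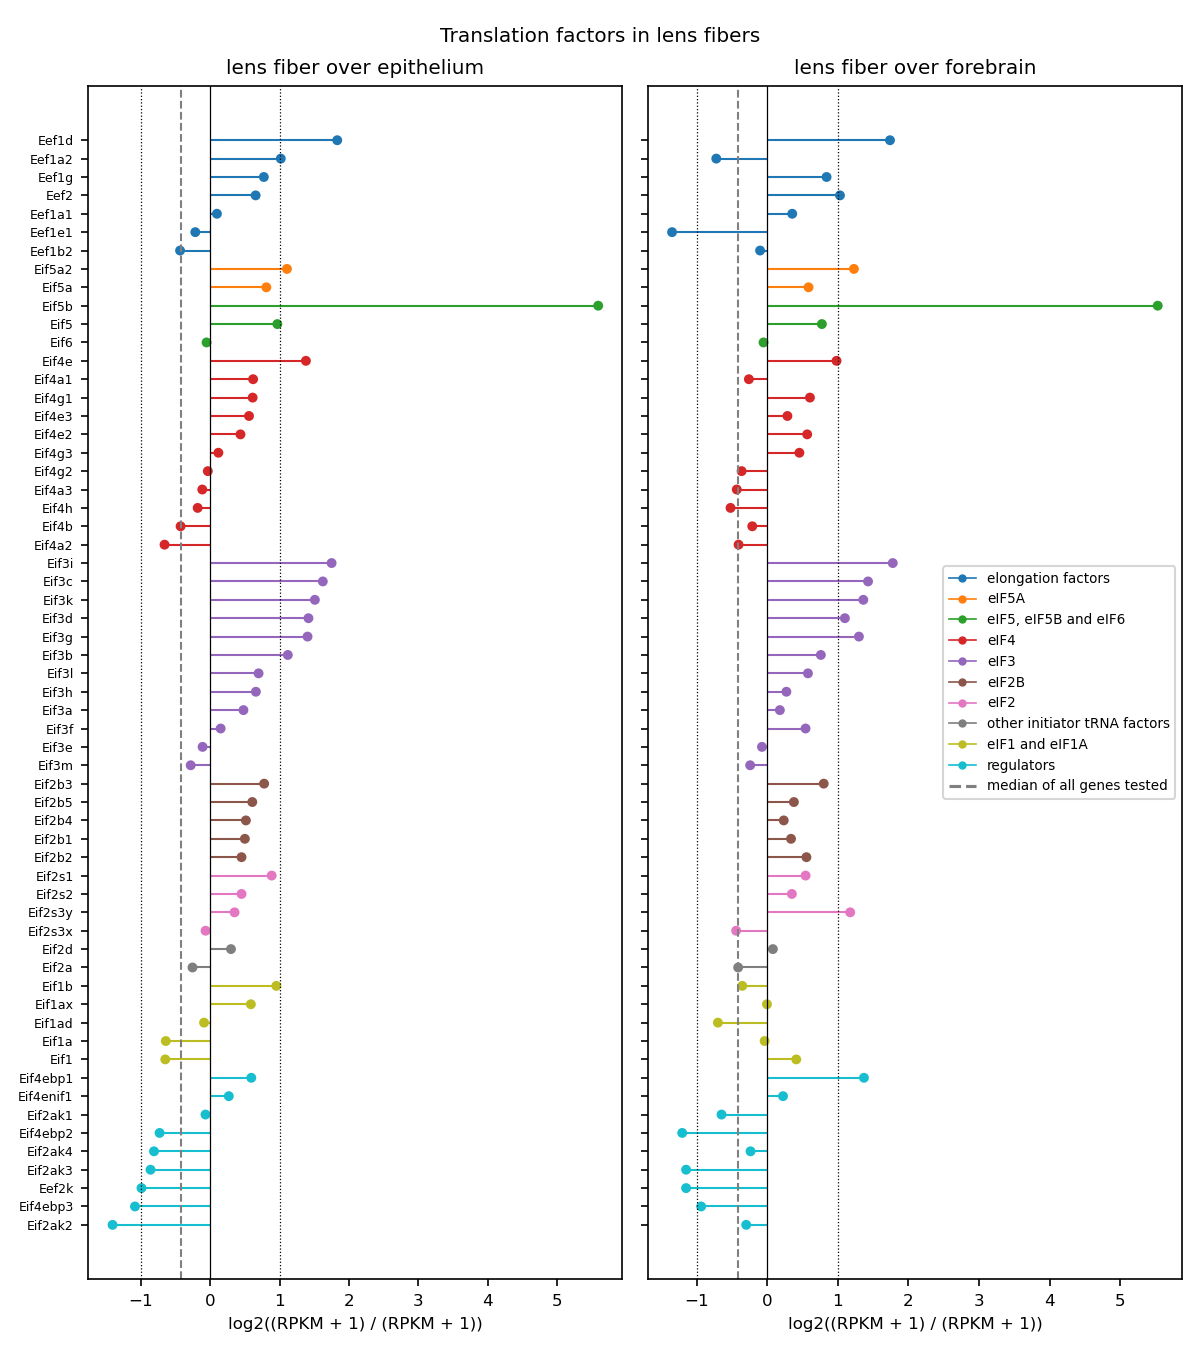
Log2 ratio of each translation factor in lens fiber over lens epithelium (left) and over forebrain (right) as deposited, coloured by its step in translation; dotted lines mark 2-fold and dashed lines the medians of all genes (-0.42 and -0.41). Eif5b is furthest out in both panels, eIF3 subunits lie mostly right of 0 and regulators mostly left of it; with libraries scaled to equal sums over all genes, every group median lies below 0 in both panels.

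In both comparisons of lens fiber, translation factors had medians above 0 as deposited, as ribosomal proteins had, with wider quartiles. The quartiles of the factors were -0.13 and 0.78 for lens fiber over lens epithelium, and -0.31 and 0.76 for lens fiber over forebrain, where those of the ribosomal proteins were 0.043 and 0.82. As deposited, 11 of 60 (18.3%) were at least 2-fold higher in lens fiber than in lens epithelium and 2 (3.33%) at least 2-fold lower, and 11 (18.3%) and 4 (6.67%) against forebrain. The background for these counts is the 11.4% and 28.3%, and the 15.9% and 31.6%, of all genes given above. The median log2 ratio was 0.45 for lens fiber over lens epithelium and 0.28 for lens fiber over forebrain. With equal sums over all genes these became -1.60 and -1.67, and without crystallins in the sums -0.034 and -0.11. Between lens epithelium and forebrain the median was -0.13, below 0 where that of ribosomal proteins was above it, and the quartiles of -0.32 and 0.12 were no wider than the -0.25 and 0.29 of ribosomal proteins. There 2 of 60 factors were higher by 2-fold or more and 3 lower, against 13.7% and 11.9% of all genes.

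Eif5b, the GTPase that joins the large subunit to the initiation complex, had the most extreme ratio of any member. It had 184.9 RPKM in lens fiber, 2.84 in lens epithelium and 3.02 in forebrain, log2 ratios of 5.60 and 5.53 for lens fiber over lens epithelium and over forebrain. With libraries scaled to equal sums over all genes these became 3.62 and 3.57. The RefSeq gene overlaps Rev1, a DNA polymerase gene (17.0, 9.99 and 9.41 RPKM), and no pseudogene is named after Eif5b. Eif5, which triggers GTP hydrolysis by eIF2, had 52.1, 26.2 and 30.1 RPKM in lens fiber, lens epithelium and forebrain. Eif6, which keeps the subunits apart until the large one is mature, had 38.8, 40.3 and 40.3 RPKM, a log2 ratio of -0.05 in both comparisons of lens fiber. The 3 factors of the joining step thus ranged from level values to the widest gap among all members.

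The eIF3 complex, the scaffold that holds the mRNA and other factors on the small subunit, was the factor group with the largest number of members 2-fold apart in comparisons of lens fiber. Of its 14 genes, 12 reached 1 RPKM, and 6 of these were at least 2-fold higher in lens fiber than in lens epithelium and 5 than in forebrain, with none at least 2-fold lower. Of all genes, 11.4% were higher and 28.3% lower than in lens epithelium, and 15.9% and 31.6% than in forebrain. Its median log2 ratios of 0.91 and 0.67 as deposited became -1.18 and -1.38 with equal sums over all genes and 0.42 and 0.25 without crystallins in the sums. Eif3i had 421 RPKM in lens fiber, 124.6 in lens epithelium and 122.2 in forebrain. Eif3k had 244, 85.2 and 94.5 RPKM and Eif3d, a subunit that can bind the cap of some mRNAs, had 166, 61.7 and 77.1 RPKM. Eif3g had 156, 58.5 and 63.0 RPKM, Eif3c had 123.6, 39.5 and 45.4 RPKM, and Eif3b, a core subunit, had 33.8, 15.1 and 19.6 RPKM. In these 6, lens fiber stood apart and lens epithelium and forebrain were within 1.5-fold of each other. Other subunits of the same complex were closer between libraries: Eif3e had 73.4, 79.4 and 77.5 RPKM and Eif3m had 34.8, 42.6 and 41.4 RPKM. Eif3f had 36.7, 33.0 and 24.9 RPKM, a log2 ratio of 0.15 over lens epithelium and 0.54 over forebrain. Eif3a, Eif3h and Eif3l had log2 ratios of lens fiber over lens epithelium of 0.48, 0.66 and 0.70. Eif3j1 and Eif3j2, near-identical copies whose counting is uncertain, were under 1 RPKM in every library, at 0.95, 0.351 and 0.298 RPKM and 0.0366, 0.351 and 0.300 RPKM in lens fiber, lens epithelium and forebrain.

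At the step of initiator tRNA delivery, differences were smaller. The eIF2 subunits had a median log2 ratio of 0.40 for lens fiber over lens epithelium as deposited, which became -1.63 with equal sums over all genes and -0.08 without crystallins in the sums. Eif2s1, the alpha subunit that the stress kinases phosphorylate, had 39.0 RPKM in lens fiber, 20.6 in lens epithelium and 26.4 in forebrain. Eif2s2, the beta subunit, had 23.4, 16.9 and 18.2 RPKM. The gamma subunit is encoded by Eif2s3x and, on the Y chromosome of the mouse, Eif2s3y, and these had 5.26, 5.57 and 7.50 RPKM and 30.2, 23.5 and 12.8 RPKM. The ratio of Eif2s3y to Eif2s3x was 5.74, 4.22 and 1.71, and the sexes of the mice in each library are not given in the labels. All 5 subunits of eIF2B, which recharges eIF2 with GTP, were higher in lens fiber than in the other libraries as deposited, with log2 ratios over lens epithelium of 0.45 (Eif2b2) to 0.78 (Eif2b3), and all 5 were below 0 with equal sums over all genes. Eif2b5, the catalytic subunit, had 45.7 RPKM in lens fiber, 29.7 in lens epithelium and 35.0 in forebrain. Eif2a and Eif2d, which can bring tRNA to the ribosome without eIF2, had 15.6, 18.9 and 21.1 RPKM and 11.0, 8.75 and 10.4 RPKM.

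The eIF1 and eIF1A genes, which keep the scanning ribosome open until it meets a start codon, showed no common direction. Eif1 had 16.9 RPKM in lens fiber, 27.2 in lens epithelium and 12.502 in forebrain, and its paralog Eif1b had 56.2, 28.6 and 72.2 RPKM. The ratio of Eif1b to Eif1 was therefore 3.32, 1.05 and 5.78, lowest in lens epithelium. Eif1 was at least 2-fold higher in lens epithelium than in forebrain (log2 ratio 1.06) and Eif1b at least 2-fold lower (-1.31). Eif1ax had 107, 71.1 and 107.5 RPKM, whereas Eif1a had 15.1, 24.1 and 15.5 RPKM, so the ratio of Eif1a to Eif1ax was also apart in lens epithelium (0.141, 0.339 and 0.144). Eif1ad, which holds an eIF1A domain, had 6.47, 6.96 and 11.1 RPKM.

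In the eIF4 group, which binds the cap and unwinds the mRNA, 1 of 11 genes was at least 2-fold higher in lens fiber than in lens epithelium, near the 11.4% of all genes. This was Eif4e, the cap-binding protein, with 70.6 RPKM in lens fiber, 26.5 in lens epithelium and 35.3 in forebrain, log2 ratios of 1.38 and 0.98. Its relatives Eif4e2 and Eif4e3 had 33.9, 24.8 and 22.6 RPKM and 3.73, 2.21 and 2.88 RPKM, and Eif4e1b, an oocyte form, was listed at 0 in all libraries. The helicases differed between lens layers: Eif4a1 had 65.0 RPKM in lens fiber, 42.0 in lens epithelium and 78.1 in forebrain, and Eif4a2 had 72.0, 114.5 and 95.9 RPKM. The ratio of Eif4a2 to Eif4a1 was 1.11, 2.73 and 1.23, again apart in lens epithelium, as for Eif1b and Eif1. Eif4a3, a part of the exon junction complex, had 37.9, 41.2 and 51.6 RPKM. The scaffold Eif4g1 had 101.3, 66.0 and 66.3 RPKM, while Eif4g2 and Eif4g3 had 64.5, 66.2 and 83.3 RPKM and 8.99, 8.22 and 6.30 RPKM. Eif4b and Eif4h, which assist the helicase, had 62.8, 84.9 and 73.0 RPKM and 108.5, 123.3 and 156.2 RPKM.

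Among elongation factors, Eef1a1, which brings aminoacyl-tRNA to the ribosome, was the most abundant factor in every library, with 2177 RPKM in lens fiber, 2038 in lens epithelium and 1705 in forebrain. Its paralog Eef1a2, the form of mature neurons and muscle, had 1.07, 0.024 and 2.42 RPKM. Eef2, which moves the ribosome to the next codon, had 994, 631 and 486 RPKM, log2 ratios of 0.65 and 1.03 for lens fiber over lens epithelium and over forebrain. The exchange factor that recharges eEF1A was uneven: Eef1d had 266, 74.1 and 79.1 RPKM and Eef1g 140.9, 82.1 and 78.3 RPKM, whereas Eef1b2 had 135.0, 183.1 and 145.1 RPKM. The log2 ratio of Eef1d was 1.83 over lens epithelium and 1.74 over forebrain. Eef1e1, a protein of the multi-synthetase complex, had 11.7, 13.8 and 31.5 RPKM and was at least 2-fold lower in both lens libraries than in forebrain (log2 ratios -1.35 and -1.13). Eif5a, which relieves stalling and carries the amino acid hypusine, had 244, 138.9 and 162.4 RPKM, and its paralog Eif5a2 had 10.6, 4.40 and 3.97 RPKM.

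Regulators of translation mostly had lower values in lens fiber, as did most genes. Of 9 genes, 7 were lower there than in lens epithelium and 7 lower than in forebrain as deposited, with medians of -0.81 and -0.65 that stayed below 0 under each scaling applied. Over all genes, 7862 of 12090 were lower against lens epithelium and 7608 of 12205 against forebrain. At least 2-fold lower were 2 of 9 against lens epithelium and 3 of 9 against forebrain, beside the 28.3% and 31.6% of all genes, so the share was near the background. Eif2ak2, the kinase PKR that double-stranded RNA activates, had 1.74 RPKM in lens fiber, 6.28 in lens epithelium and 2.37 in forebrain. It overlaps an expressed pseudogene in RefSeq, Gm6548, listed at 138.7, 145.2 and 131.7 RPKM. Eif2ak3, the endoplasmic reticulum kinase PERK, had 1.73, 3.97 and 5.07 RPKM, and Eif2ak4, the amino acid sensor GCN2, had 3.84, 7.51 and 4.71 RPKM. Eif2ak1, the heme-regulated kinase, had 5.42, 5.74 and 9.07 RPKM. All 4 kinases of eIF2 alpha were thus lowest in lens fiber as deposited, although Eif2ak1 differed from lens epithelium by a log2 ratio of only -0.07, which centring on genes at 1 RPKM or more in both libraries, a shift of 0.20, puts above 0. Eef2k, the kinase that blocks Eef2, had 0.295, 1.58 and 1.88 RPKM.

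The binding proteins that hold Eif4e back differed among themselves. Eif4ebp1 had 20.4 RPKM in lens fiber, 13.2 in lens epithelium and 7.29 in forebrain. Eif4ebp2 had 0.812, 2.01 and 3.18 RPKM and Eif4ebp3 had 1.29, 3.87 and 3.39 RPKM. The 3 genes therefore ran in opposite directions between lens fiber and forebrain, with log2 ratios of 1.37, -1.21 and -0.94. Several of these regulators lie within a few RPKM of the floor of 1 RPKM, where the added 1 RPKM holds ratios down.

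**Figure D4:**
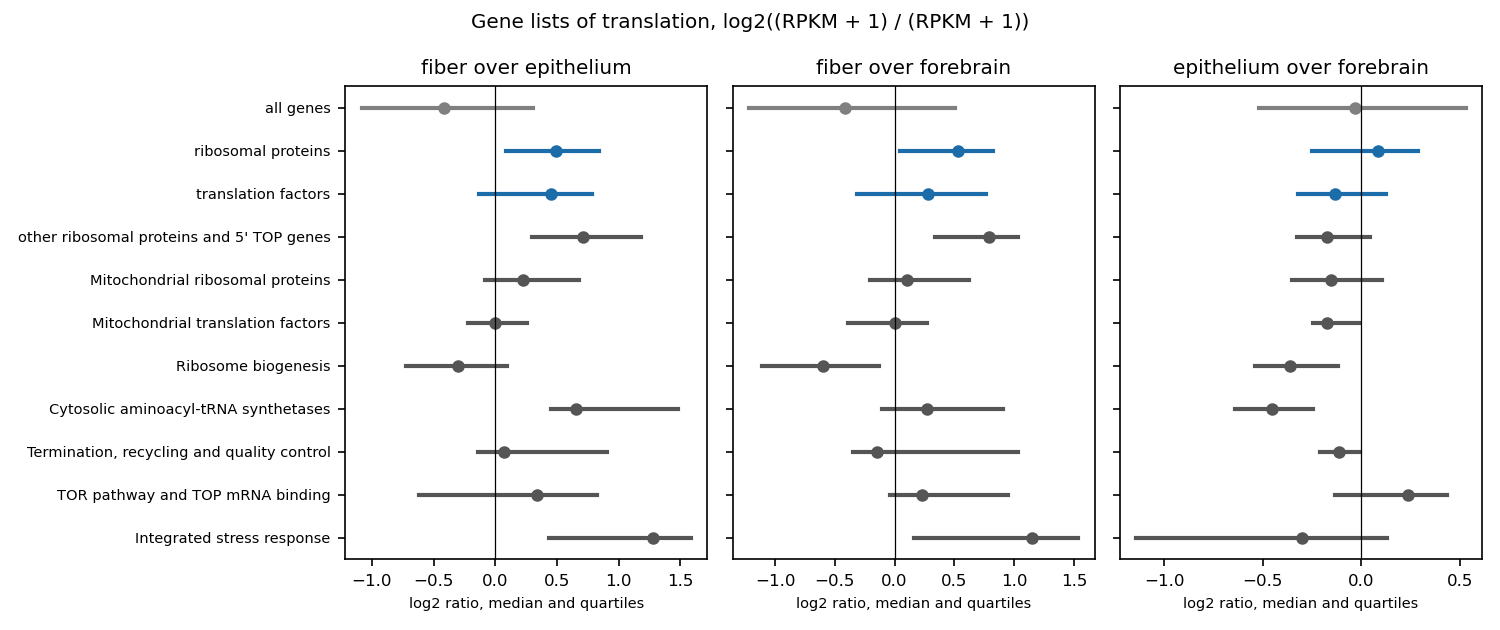
Median (point) and quartiles (bar) of log2 ratios as deposited for all genes, for ribosomal proteins and translation factors (blue), and for lists of other genes of translation, in lens fiber over lens epithelium (left), lens fiber over forebrain (middle) and lens epithelium over forebrain (right). Ribosome biogenesis lies below 0 in all 3 panels and the integrated stress response lies furthest right in both fiber panels. Scaling to equal sums over all genes puts each list median below 0 in the fiber panels. Without crystallins in the sums, the integrated stress response had 0.82 and 0.75 there, and the other list medians lay on both sides of 0.

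Other genes of the translation pathway were described with lists of their own. Ribosome biogenesis factors, which make and assemble ribosomal RNA in the nucleolus, had median log2 ratios of -0.30 for lens fiber over lens epithelium, -0.60 for lens fiber over forebrain and -0.36 for lens epithelium over forebrain (49 genes), all below 0 under each scaling applied. Of the 49, 14 (28.6%) were at least 2-fold lower in lens fiber than in forebrain and 1 (2.04%) at least 2-fold higher, against 31.6% and 15.9% of all genes. Against lens epithelium, 5 (10.2%) were at least 2-fold lower and 1 higher, beside 28.3% and 11.4% of all genes, and the median of -0.30 lay above the -0.42 of all genes. Npm1, the nucleolar protein nucleophosmin, had 22.8 RPKM in lens fiber, 68.7 in lens epithelium and 121 in forebrain. Nop56 and Nop58, core proteins of the box C/D particles that methylate ribosomal RNA, had 14.97, 24.3 and 46.6 RPKM and 16.5, 43.5 and 57.5 RPKM. Against lens epithelium, 14 of the 49 (4228 of all 12090 genes) had higher values in lens fiber. Against forebrain, 9 of the 49 (4597 of all 12205 genes) did. Gnl2, a nucleolar GTPase with 72.0, 25.8 and 21.5 RPKM, was the 1 gene that was at least 2-fold higher in both, and Nat10, which acetylates ribosomal RNA, had 18.8, 9.01 and 10.2 RPKM. Beside the biogenesis list, summed proliferation genes had 2.66 RPKM in lens fiber, 90.9 in lens epithelium and 315 in forebrain.

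Cytosolic aminoacyl-tRNA synthetases had a median of 0.66 for lens fiber over lens epithelium as deposited (22 genes), which became -1.42 with equal sums over all genes and 0.16 without crystallins in the sums. Of these, 8 (36.4%) were higher by 2-fold or more and none lower, against 11.4% and 28.3% of all genes. Cars, for cysteine, had 79.5 RPKM in lens fiber, 8.48 in lens epithelium and 9.46 in forebrain, and Lars, for leucine, had 135.4, 33.6 and 31.5 RPKM. Against forebrain, 5 of 22 were at least 2-fold higher in lens fiber, beside 15.9% of all genes, and between lens epithelium and forebrain no gene was 2-fold apart, with a median of -0.45.

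The integrated stress response, the program that Atf4 drives when eIF2 alpha is phosphorylated, had the highest medians in both comparisons of lens fiber. As deposited they were 1.28 for lens fiber over lens epithelium and 1.15 for lens fiber over forebrain. They became -0.79 and -0.95 with equal sums over all genes, and 0.82 and 0.75 without crystallins in the sums. Of 9 genes, 6 (66.7%) were at least 2-fold higher in lens fiber than in lens epithelium and none lower, beside 11.4% and 28.3% of all genes. Against forebrain, 5 of 10 (50%) were higher and 2 (20%) lower by 2-fold or more, beside 15.9% and 31.6% of all genes. Atf4 had 164 RPKM in lens fiber, 71.1 in lens epithelium and 64.8 in forebrain, and Nupr1, a stress-induced chromatin protein, had 697, 37.9 and 0.238 RPKM. The 2 lower against forebrain were Ddit4, an inhibitor of TOR signaling, with 6.87, 7.68 and 18.5 RPKM, and Cebpb, a transcription factor listed at 0 in lens fiber and at 0.852 and 1.59 RPKM in lens epithelium and forebrain. Chac1 and Trib3 stayed under 1 RPKM in every library, so the list did not move as a whole.

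Genes of the ribosome and TOP mRNAs that the symbols miss (11 genes) were also compared. Their medians as deposited were 0.71 for lens fiber over lens epithelium and 0.79 for lens fiber over forebrain. They became -1.35 and -1.21 with equal sums over all genes, and 0.22 and 0.39 without crystallins in the sums. Of these 11, 3 were at least 2-fold higher in lens fiber and 2 at least 2-fold lower in each comparison, or 27.3% and 18.2%. The shares of all genes were 11.4% and 28.3% against lens epithelium, and 15.9% and 31.6% against forebrain. The 2 lower genes were Hnrnpa1 and Npm1, and Npm1 is also counted in the biogenesis list. Hnrnpa1 had 8.63 RPKM in lens fiber, 28.6 in lens epithelium and 36.3 in forebrain. Rpl36al, a paralog of Rpl36a, had 208 RPKM in lens fiber, 68.7 in lens epithelium and 45.0 in forebrain, and Gnb2l1, the ribosomal scaffold RACK1, had 1760, 967 and 927 RPKM. Mitochondrial ribosomal proteins (76 genes) had medians of 0.23 and 0.10 as deposited, which became -1.75 and -1.81 with equal sums over all genes. Mitochondrial translation factors (9 genes) had medians of 0.00 in both and none 2-fold apart.

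In termination and rescue of stalled ribosomes (9 genes), the medians were 0.07 and -0.15 as deposited, and -0.41 and -0.54 without crystallins in the sums. As deposited, 2 were at least 2-fold higher in lens fiber than in lens epithelium and 3 than in forebrain, with none at least 2-fold lower. Of all genes, 11.4% and 15.9% were higher and 28.3% and 31.6% lower. Hbs1l and Pelo, partners that release stalled ribosomes, were at least 2-fold higher in both comparisons. Ltn1, Nemf and Zfp598 of the same list were slightly below 0 in both. Hbs1l had 150.6 RPKM in lens fiber, 20.9 in lens epithelium and 22.8 in forebrain, and Pelo had 13.9, 5.54 and 6.30 RPKM. The TOR pathway list (17 genes) had medians of 0.34 and 0.23 as deposited, which became -1.64 and -1.56 with equal sums over all genes. In it, Tsc2, an inhibitor of TOR signaling, had 58.3, 8.43 and 5.99 RPKM, and Mtor itself had 27.4, 14.1 and 7.61 RPKM. Pdcd4, an inhibitor of the eIF4A helicase, had 19.2, 51.3 and 16.2 RPKM.

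Members also host small nucleolar RNAs (snoRNAs), which guide modification of ribosomal RNA, in their introns. RefSeq places 75 within 39 member genes. Of these 40 were in the table, 24 were listed at 0 in all 3 libraries and 16 were above 0 in any. Snord15b within Rps3 had 119269 RPKM in lens fiber, 81443 in lens epithelium and 56095 in forebrain, against 469, 414 and 384 RPKM for Rps3. Snora64 within Rps2 had 6353, 3858 and 3060 RPKM, against 20.3, 7.63 and 23.5 RPKM for its host. Snora52 within Rplp2 ran the other way, with 196, 489 and 838 RPKM against 257, 127 and 104 RPKM for Rplp2. RPKM of RNAs this short depends strongly on fragment selection, and in the last 2 examples the order of libraries differed between the snoRNA and its host.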

How the data were processed

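RNA-seq values of lens fiber, lens epithelium and forebrain (1 library each) were used as RPKM, the unit deposited by the authors, per the file headers. TopHat2 (version 2), Cufflinks (version 2), Cuffdiff and the mouse build mm9 are named in the submitters' processing notes without their roles. The sources used here do not give the annotation, the treatment of reads with several matches or the depth, and RPKM steps gave no whole reads, so no intervals are given. Members, gene lists and their groups were chosen with earlier results of these data known. For each pair of libraries, log2((RPKM + 1) / (RPKM + 1)) was computed with pandas 2.3.3 and numpy 2.4.6 for genes that reached 1 RPKM in that pair, and the calculation was tested on simulated data. Values of 1 library a group allow no p-value. Named genes were the 5 highest and 5 lowest ratios per class and comparison, the 3 most abundant members per library, and set families; snoRNAs, copies and examples from lists were chosen after their values were seen. Symbols were matched to the RefSeq table of GRCm38.p6 (23812 of 23947, and all 147 members), which gave names, gene types, neighbours and promoter sequences. Its coordinates were not mixed with mm9. Alternatives covered the added RPKM, the filter, scaling and the choice of members. Centring on abundant genes and shares over protein-coding genes were added after seeing the data.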

Additional observations from a re-analysis of the deposited data

How the results depend on the processing

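With 1 library a group there was no replicate to leave out. No paired analysis was possible because each group held 1 library and no test was made. A median was taken as the same within 0.2 on the log2 scale, and a count or share within 1.5 times. Of 180 values under the alternatives, 117 were the same, 56 moved and 7 reversed. The scale between libraries mattered most, by the shifts given for the RPKM sums, and other causes were not tested.

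With equal RPKM sums over all genes, the median of ribosomal proteins was -1.44 for fiber over epithelium (1 higher, 62 lower by 2-fold or more) and -1.34 for fiber over forebrain (3 higher, 63 lower). That of factors was -1.60 (1 higher, 48 lower) and -1.67 (1 higher, 51 lower). Without crystallins in the sums, ribosomal proteins had 0.019 (3 higher, 3 lower) and 0.13 (5 higher), and factors -0.034 (5 higher, 8 lower) and -0.11 (4 higher, 7 lower). Centred on genes at 1 RPKM or more in both libraries, ribosomal proteins had 0.70 (22 higher) for fiber over epithelium and 22 higher for fiber over forebrain. Factors then had 0.65 (1 lower) and 2 lower. Centred on genes at 50 RPKM or more in the library outside the pair, an alternative chosen after seeing the data, ribosomal proteins had 0.029 (5 higher) for fiber over forebrain. Factors had -0.22 (3 higher, 9 lower) for fiber over forebrain and 0 higher for epithelium over forebrain.

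With 0.1 RPKM added, 8 ribosomal proteins were lower for epithelium over forebrain, and 5 factors for fiber over epithelium. With 5 RPKM added, 7 ribosomal proteins were higher for fiber over epithelium and 3 lower for epithelium over forebrain. Factors lower were then 0 for fiber over epithelium, 1 for fiber over forebrain and 1 for epithelium over forebrain, with 0 higher in the last. With a floor of 5 RPKM, 3 ribosomal proteins were lower for epithelium over forebrain, and factors lower were 1 for fiber over epithelium and 2 for fiber over forebrain. Initiation and elongation factors alone had 0 lower for fiber over epithelium, 1 lower for fiber over forebrain and 1 higher for epithelium over forebrain.

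The share of ribosomal proteins was 3.27% in fiber without crystallins. Without the 10 highest genes of any library it was 3.29% in fiber, 6.47% in epithelium and 5.25% in forebrain, and over protein-coding genes without crystallins 8.55%, 7.59% and 5.72%. The share of factors was 0.868% in fiber without crystallins, then 0.873%, 1.94% and 1.64%, and 2.27%, 2.27% and 1.79%.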
